A study of Rattus norvegicus with 6 samples.

Results

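Circular RNAs (circRNAs) whose host genes encode parts of the ubiquitin and neddylation system were followed in the rat spinal cord after transection. A circRNA is a closed loop made when a downstream splice site is joined to an upstream one, and it is measured by reads that cross this back-splice junction. The members were taken by the host's gene symbol. The rule itself holds no count, but it was chosen with earlier results of these data known. They are the circRNAs in sense to Mycbp2, Ttc3 or Dcun1d4, or to a host whose symbol starts with Usp, Ube, Ubr, Ubap, Herc, Hectd, Hecw, Trim, Rnf, Fbx, Cul or March, with Hecw1 left out. This gave 124 of the 4443 host genes in sense and 356 of the 11061 circRNAs in the table. Together they carried 2900 back-splice reads, 1779 of them in SCI libraries and 1121 in sham libraries.

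The samples were whole spinal cord from Wistar rats aged 8 weeks. In 3 libraries the rats had had the cord cut through (SCI), and in the other 3 they had only a laminectomy, which opens the vertebral arch (sham). The submitters' design text describes a complete cut, but the wording of the title leaves room for an incomplete one. Neither the interval from surgery to collection nor the cord segment taken is given in the sources used here. No label says that each library is from a separate animal, so the spread described is that between libraries.

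Ubiquitin is a small protein that is attached to other proteins in a chain of steps. An E1 enzyme activates it, an E2 conjugating enzyme carries it, and an E3 ligase chooses the protein that receives it, after which the tagged protein is often degraded by the proteasome. RING ligases hold the E2 next to the substrate, HECT ligases take the ubiquitin themselves first, and cullin-RING ligases are built on a cullin scaffold with exchangeable substrate receptors such as the F-box proteins. Cullins work when the ubiquitin-like protein NEDD8 is attached to them (neddylation), and deubiquitinases such as the Usp proteins remove ubiquitin. In neurons the system sets axon degeneration, synapse growth and the level of many synaptic proteins. A circRNA count says which loops were made and kept, and it is no measure of the linear mRNA or the protein.

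There were 21255, 20847 and 19603 back-splice reads in SCI libraries against 11631, 9805 and 12722 in sham libraries. Levels of hosts are given as CPM, the usual scaling of reads to a common library size, here over the hosts that had enough reads to test. With such totals, 1 read on a host equalled 76.9 to 84.8 CPM in SCI and 126 to 165 CPM in sham. Sham replicate 3 stood apart in its makeup. It held 261 circRNAs with 5 or more reads that no other library showed, and these took 14.7% of its reads, against 5.79% in sham replicate 1 and 1.04% to 1.52% in the other 4 libraries. Among the members there were 13 such circRNAs in sham replicate 3, with 84 reads or 23.5% of its member reads, so the gaps of member hosts, classes and splice ends are also set against circRNAs seen in 2 or more libraries only, a choice made after seeing the data. Of the marker genes of cord cell types, 8 of 11 neuronal genes (187 SCI and 86 sham reads, 0.231% to 0.377% and 0.163% to 0.330% of a library) and 6 of 8 oligodendrocyte genes (132 SCI and 60 sham reads, 0.173% to 0.263% and 0.172% to 0.181%) had circRNAs. The same was true of 4 of 6 astrocyte genes (12 SCI and 12 sham reads), 1 of 4 Schwann cell genes (Prx, 0 SCI and 2 sham reads), 1 of 6 skeletal muscle genes (Ttn, 7 SCI and 0 sham reads) and 0 of 8 microglial genes. The 2 endothelial genes with circRNAs, Flt1 and Tek of 5 on the list, held 0.0188% to 0.0288% of reads in SCI and 0.0612% to 0.0946% in sham. Their part in the results below was not tested, and in whole cord fewer cells of a type and less RNA per cell cannot be told apart.

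The system's hosts made up a small part of the circRNA pool in injured and sham cord. Their circRNAs took 3.01%, 2.73% and 2.91% of the reads of the SCI libraries, and 3.77%, 3.30% and 2.81% of those of the sham libraries. The means were 2.88% ± 0.141 in SCI and 3.30% ± 0.480 in sham (each ± SD over 3 libraries, as for every mean below), and the groups overlapped through sham replicate 3 alone. The difference of -0.41 percentage points was -0.66 without sham replicate 3, when every SCI library lay below both sham libraries, and -0.18 without sham replicate 1. More of the members were seen in SCI, with 140 ± 5.51 circRNAs from 76.7 ± 6.11 hosts, against 80.0 ± 12.2 circRNAs from 47.3 ± 9.45 hosts in sham. The SCI libraries held more back-splice reads, so each library was also thinned to the smallest total of 9805 reads. At that total 108 ± 4.58 member circRNAs were expected in SCI and 78.7 ± 12.8 in sham, and of those with 2 or more reads 53.9 ± 2.64 in SCI and 65.6 ± 10.3 in sham, with overlap in the second count. The members as a share of all circRNAs seen in a library were 3.07% ± 0.127 in SCI and 3.21% ± 0.199 in sham.

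Reads were spread very unevenly over the 124 hosts. The 20 hosts with 30 or more reads held 2031 reads, 70.0% of the total, while 41 hosts had only 2 to 4 reads. The E3 ligase gene Ttc3 was the 8th most-read of all 4443 hosts, and Dcun1d4, whose protein helps attach NEDD8 to cullins, was the 30th. Both together took 30.9% ± 3.66 of the member reads in SCI and 30.2% ± 1.33 in sham. Further down the ranks of all hosts came Fbxl17 at 155, Ube3a at 158 and Fbxw4 at 173. Only 16 member hosts were seen in all 6 libraries, and 39 were seen in 1 library. Reads in SCI libraries alone were found for 40 hosts, 32.3% of the members against 34.7% of all hosts, and in sham libraries alone for 13, 10.5% against 15.4%.

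In form the member circRNAs were much like the rest. Exonic loops, whose ends lie on exon boundaries, numbered 254 or 71.3%, against 67.5% of the 9925 other sense circRNAs with a host. A further 90 overlapped their host in sense without matching its exons (25.3% against 27.7%), and 12 lay within introns (3.37% against 4.81%). The members had a median genomic span of 10138 bp against 11017 bp, and a median predicted length of exonic loops of 755.5 nt against 642.5 nt. A circBase entry was listed for 131 of them, 36.8% against 41.9%. Members had 2.87 circRNAs per host against 2.30 for other hosts, and 209 of them (58.7% against 56.6%) were seen in 1 library only. These are descriptions of the table, with no test.

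By role, the RING ligases were the largest class, and the class whose share of reads did not overlap between the groups. The 41 RING hosts had 111 circRNAs and 1106 reads. They took 1.11%, 1.01% and 1.01% of the reads in SCI and 1.48%, 1.21% and 1.34% in sham, with means of 1.04% ± 0.0573 in SCI and 1.34% ± 0.133 in sham. Every SCI library lay below every sham library, also without Ttc3 (0.473% ± 0.0951 in SCI and 0.691% ± 0.0578 in sham). When only circRNAs seen in 2 or more libraries were kept, the RING shares were 0.892% ± 0.0672 in SCI and 1.06% ± 0.110 in sham and the groups overlapped, as they did without Ttc3 (0.334% ± 0.0741 in SCI and 0.445% ± 0.0796 in sham). The 26 cullin and F-box hosts held 0.586% ± 0.0486 of reads in SCI and 0.464% ± 0.103 in sham, and the 26 Usp hosts 0.315% ± 0.0991 in SCI and 0.461% ± 0.121 in sham. Dcun1d4 alone held 0.324% ± 0.0276 in SCI and 0.345% ± 0.115 in sham, the 11 HECT and Ube3 hosts 0.299% ± 0.0408 in SCI and 0.265% ± 0.0244 in sham, and the 6 UBR hosts 0.211% ± 0.0426 in SCI and 0.275% ± 0.121 in sham. The 10 hosts named Ube2 held 0.0802% ± 0.0316 in SCI and 0.137% ± 0.0539 in sham. Outside the RING class each of these classes overlapped between SCI and sham. How often a set of other hosts as large as the RING class shows a gap was not counted, so the RING gap has no background.

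**Figure D1:**
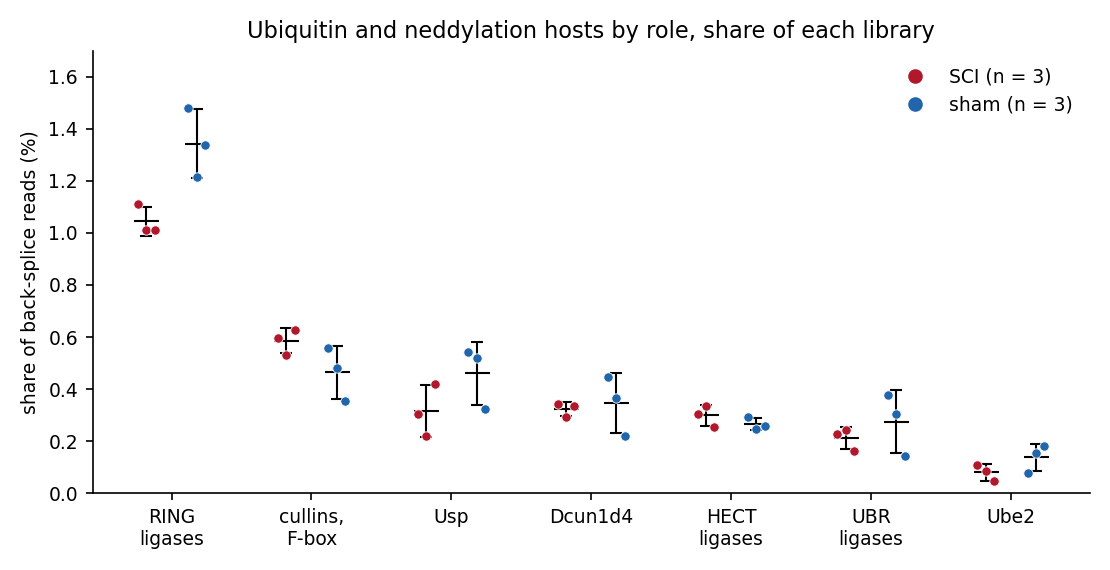
Share of each library's back-splice reads (percent, y axis) held by the member hosts of each role class (x axis), with SCI libraries in red left of sham libraries in blue, each point a library and the bars the mean ± SD (n = 3). The RING ligase shares lie at 1.01% to 1.11% in SCI and 1.21% to 1.48% in sham, and the groups overlap in the other classes.

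Of the 124 member hosts, 19 had enough reads to be compared host by host, and none of them passed the test (edgeR, adjusted p under 0.05), nor did any under DESeq2 or limma-voom. In all, 647 hosts were tested and 2 were called, which is 0.309%. At an unadjusted p under 0.05 there were 3 of the 19 members, Rnf150, Mycbp2 and Fbxl17, against 42 of all 647 hosts (6.49%). The log2 fold change, SCI over sham, was positive in 6 of the 19 and negative in 13, with a median of -0.17, while the median over all 647 hosts was 0.14. In 2 of the 19 every SCI library lay above every sham library, where 9.89% of all tested hosts did so, and in 1 every SCI library lay below, where 5.1% did so. Of the 19, 6 reached the filter's minimum count in 3 libraries by SCI alone and 3 by sham alone. Rnf150 and Fbxl17 did so by SCI and Mycbp2 by sham, in each case the group where the host is high, so the filter itself favoured their gaps and small p. The counts also say little about the 105 hosts that were not tested.

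**Figure D2:**
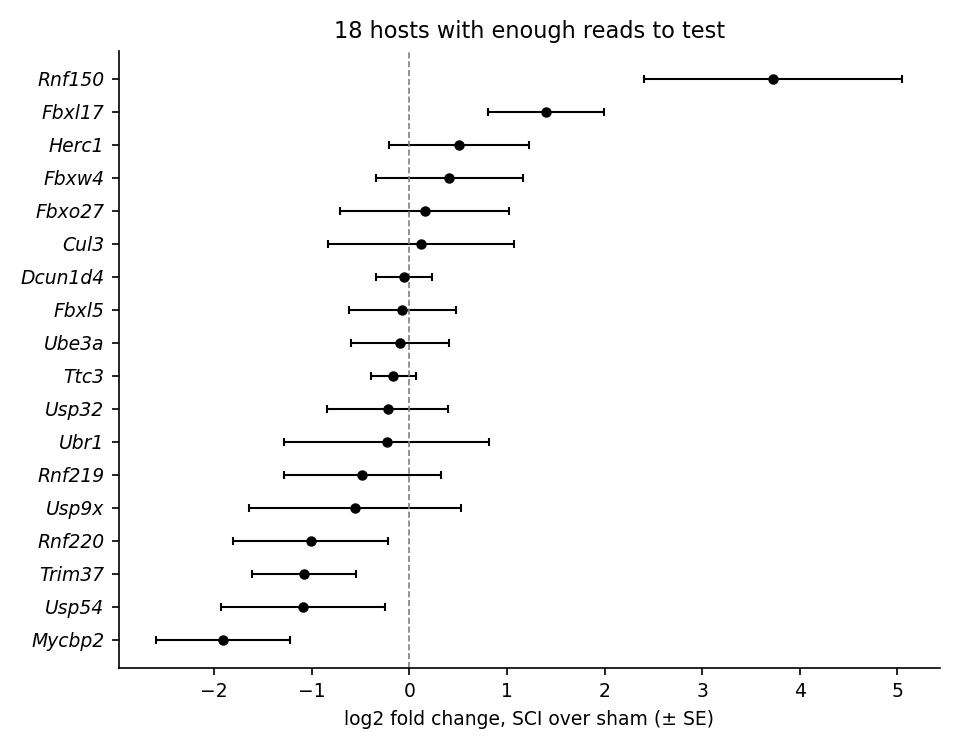
Log2 fold change of host sums, SCI over sham (x axis), for 18 of the member hosts tested, ordered by size from top to bottom, with points for the estimate and bars for ± 1 SE. Rnf150 and Fbxl17 lie highest at 3.73 and 1.40 and Mycbp2 lowest at -1.91, and Ttc3 and Dcun1d4, with the most reads, have the shortest bars, close to 0.

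Ttc3, a RING ligase gene that takes its name from its tetratricopeptide repeats and lies in the Down syndrome region in humans, gave 139, 91 and 122 reads in SCI libraries against 85, 57 and 82 in sham libraries. Scaled by depth this was 9377 ± 1986 CPM in SCI and 10501 ± 1176 CPM in sham, and the groups overlapped. The log2 fold change was -0.17 (SE 0.23, adjusted p = 0.986), the smallest SE among the 19 tested members. Most of its reads came from few of its 16 circRNAs. The circRNA chr11:38200374-38201886 on the plus strand, an exonic loop of 437 nt, had 97, 64 and 72 reads in SCI libraries against 41, 44 and 44 in sham libraries (log2 fold change -0.06, SE 0.27). The second, chr11:38200374-38218881, had 16, 17 and 15 reads in SCI libraries against 9, 12 and 7 in sham libraries (-0.15, SE 0.57).

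These 2 Ttc3 loops start at the same splice site. In all, 6 of the 16 circRNAs used the upstream end at 38200374, and these 6 carried 477 reads, 82.8% of the host. Another loop, chr11:38199286-38201886, shares its downstream end with the first, starts further upstream and is classed as sense overlapping. It had 8, 1 and 14 reads in SCI libraries against 14, 1 and 20 in sham libraries, so it varied more between libraries of a group than between the groups (log2 fold change -1.41, SE 0.88, adjusted p = 0.920). Seen in 3 libraries, the loop from 38200374 to 38227568 had 3, 4 and 4 reads in SCI libraries against 0 in every sham library. Against the floor of 3 reads over the sham group, this is 2.03-fold higher in SCI relative to the library totals.

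Rnf150 codes for a membrane-linked RING ligase and showed the highest log2 fold change among the tested members. It had 7, 15 and 8 reads in SCI libraries against 0, 1 and 0 in sham libraries, with no overlap. This is 795 ± 331 CPM in SCI and 55.0 ± 95.2 CPM in sham. The log2 fold change was 3.73 (SE 1.32), with an unadjusted p of 0.0140 and an adjusted p of 0.603. From the reads alone the ratio was 16.6, with an exact 95% interval of 2.76 to 678, since sham held a single read. Its loop chr19:35161102-35176945, on the plus strand, had 6, 14 and 5 reads in SCI libraries against 0, 1 and 0 in sham libraries, and a longer loop from the same upstream end, to 35199674, had 1, 1 and 3 in SCI libraries against 0 in every sham library. Both loops were seen in more than 1 library. No sham library reached the filter's minimum for Rnf150, so it was tested only through the group where it is high.

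Mycbp2, known as PHR1, is a very large RING ligase that controls axon degeneration and synapse growth. It had the lowest log2 fold change among the tested members. Its reads were 8, 5 and 3 in SCI libraries against 17, 5 and 13 in sham libraries, which gave 420 ± 182 CPM in SCI and 1605 ± 762 CPM in sham with no overlap. The log2 fold change was -1.91 (SE 0.68), with an unadjusted p of 0.0149 and an adjusted p of 0.603. The reads were scattered over 12 circRNAs, and the most-read, chr15:97228416-97230981 on the minus strand, had only 1, 0 and 3 reads in SCI libraries against 7, 2 and 3 in sham libraries. Just 2 of the 12 were seen in more than 1 library, and these gave 3, 0 and 3 reads in SCI libraries against 8, 5 and 3 in sham libraries, too few to test, though each SCI library still lay below each sham library as a share of reads.

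Trim37, a RING ligase gene of the tripartite motif family that limits centriole assembly, had 11, 18 and 7 reads in SCI libraries against 15, 7 and 22 in sham libraries. Scaled to CPM this came to 947 ± 414 in SCI and 2002 ± 815 in sham, and the log2 fold change was -1.08 (SE 0.54) with an adjusted p of 0.767. It came from 12 circRNAs. The main loop chr10:75610585-75626563 on the minus strand had 5, 11 and 3 reads in SCI libraries against 4, 4 and 6 in sham libraries (log2 fold change -0.45, SE 0.87). A larger loop from the same upstream end, chr10:75584019-75626563, had 7 reads, all in sham replicate 3, and with circRNAs in 2 or more libraries only the host's log2 fold change was -0.53.

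The other tested RING hosts gave overlapping groups. Rnf220, whose protein is known in mice to ubiquitinate Gli factors during patterning of the ventral neural tube, had 9, 6 and 4 reads in SCI libraries against 9, 9 and 3 in sham libraries (log2 fold change -1.01, SE 0.80). Most of its reads came from chr5:140134024-140134765 on the minus strand, with 6, 6 and 4 in SCI libraries against 9, 9 and 3 in sham libraries. Rnf219, now named Obi1 and known for ubiquitinating the origin recognition complex, had 10, 14 and 2 reads in SCI libraries against 10, 6 and 4 in sham libraries, all on the single loop chr15:92147161-92154935 of the minus strand (-0.48, SE 0.80). In 2 RING hosts with too few reads to test, Trim33 and Rnf111, each SCI library lay below each sham library as a share of reads. Trim33 had 4, 0 and 4 reads in SCI libraries against 3, 8 and 5 in sham libraries, and Rnf111 had 4, 3 and 3 in SCI libraries against 3, 2 and 8 in sham libraries, the last 8 on a loop seen in sham replicate 3 alone. Over circRNAs in 2 or more libraries neither gap held, with 4, 0 and 4 reads in SCI libraries against 0, 0 and 5 in sham libraries for Trim33, and 4, 3 and 0 in SCI libraries against 3, 0 and 0 in sham libraries for Rnf111. With Mycbp2 these were the 3 members (2.42%) below sham in every library, against 1.53% of all 4443 hosts. Over circRNAs in 2 or more libraries Mycbp2 was the 1 left, and the share of all hosts in that setting was not counted.

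**Figure D3:**
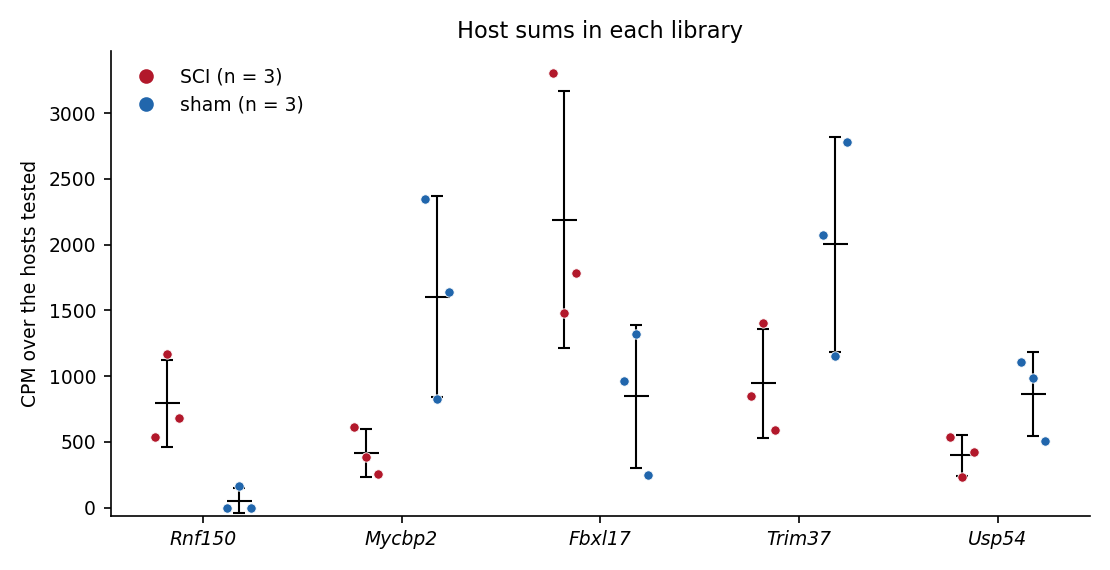
Host sums in CPM over the hosts tested (y axis, linear) for 5 of the member hosts tested (x axis), with SCI libraries in red left of sham libraries in blue, each point a library and the bars the mean ± SD (n = 3). Rnf150 and Fbxl17 lie above sham in each SCI library and Mycbp2 lies below, while Trim37 and Usp54 overlap; none of the 5 passed the test.

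Among the HECT ligases, Ube3a, the gene mutated in Angelman syndrome, had the most reads. It had 26, 23 and 12 in SCI libraries against 7, 9 and 21 in sham libraries. Sham replicate 3 thus held more than the other 2 sham libraries together, and the log2 fold change was -0.09 (SE 0.50, adjusted p = 0.986). Its most-read circRNA, chr1:117754790-117766394 on the plus strand, is classed as sense overlapping, with 10, 7 and 5 reads in SCI libraries against 3, 5 and 10 in sham libraries. An exonic loop to the same downstream end, chr1:117760399-117766394, had 8, 2 and 4 in SCI libraries against 2, 3 and 0 in sham libraries. The downstream end at 117816359, shared by 2 other loops, took 23.1%, 43.5% and 25.0% of the Ube3a reads in SCI and 0%, 11.1% and 14.3% in sham, from 19 reads in SCI and 4 in sham. Over circRNAs in 2 or more libraries these shares were 23.1%, 52.6% and 25.0% in SCI and 0%, 11.1% and 14.3% in sham, again without overlap. The upstream end at 117754790, that of the most-read circRNA, went the other way, also without overlap. It took 38.5%, 30.4% and 41.7% of the reads in SCI and 42.9%, 55.6% and 47.6% in sham. Ends in Herc1 and in Usp32 did not overlap either. The end at 117816359 was picked after its values were seen. How often an end in such thinly read hosts shows a gap was not counted, so this gap has no background.

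Herc1, a giant HECT ligase, had 13, 14 and 16 reads in SCI libraries against 12, 3 and 2 in sham libraries, with a log2 fold change of 0.51 (SE 0.72). Its loop chr8:71805238-71816190 on the plus strand had 3, 6 and 10 reads in SCI libraries against 5, 0 and 0 in sham libraries. Herc2, a related giant ligase of the DNA damage response, had 7, 6 and 5 reads in SCI libraries against 3, 0 and 6 in sham libraries and was not tested.

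The UBR ligases recognise proteins by destabilising residues at their N terminus. Ubr1 had 7, 9 and 4 reads in SCI libraries against 10, 3 and 0 in sham libraries (log2 fold change -0.23, SE 1.05). Its loop chr3:119439063-119442684 on the minus strand had 2, 3 and 3 reads in SCI libraries against 10, 1 and 0 in sham libraries. Ubr4 was not tested and had 7, 3 and 2 reads in SCI libraries against 3, 2 and 0 in sham libraries. Ubr2, with 3, 3 and 5 reads, and Ubr3, with 3, 3 and 0, were read in SCI alone, at least 2.03-fold and at least 1.11-fold higher in SCI by the same floor. Over circRNAs in 2 or more libraries Ubr2 had 1, 3 and 5 reads in SCI libraries against 0 in every sham library, 1.66-fold higher in SCI by the floor, and Ubr3 had none.

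Fbxl17 was the F-box host with the most reads. Its protein is known to check the pairing of BTB domains and to remove mispaired dimers. It had 43, 19 and 21 reads in SCI libraries against 7, 8 and 2 in sham libraries, or 2190 ± 979 CPM in SCI and 846 ± 543 CPM in sham, with no overlap. The log2 fold change was 1.40 (SE 0.60), with an unadjusted p of 0.0345 and an adjusted p of 0.698. Over circRNAs in 2 or more libraries it had 40, 17 and 21 reads in SCI libraries against 7, 8 and 2 in sham libraries (log2 fold change 1.27), and as a share of a library's reads the groups then overlapped. Most of it was the exonic loop chr9:110473997-110490932 on the minus strand, 513 nt long, with 35, 17 and 20 reads in SCI libraries against 6, 8 and 2 in sham libraries. For that loop the log2 fold change was 1.20 (SE 0.65), and its adjusted p of 0.763 was the lowest of the 14 member circRNAs with enough reads to test. None of these 14 passed (edgeR, and likewise 0 under DESeq2 and limma-voom), and 1 of 484 in the whole table did (0.207%). At an unadjusted p under 0.05 there were 0 of the 14, against 6.2% of the 484. By CPM, here over the circRNAs tested, only the main Fbxl17 loop among the 14 had each SCI library above each sham library. Of the 484, 9.71% did so. The gap was narrow, with the lowest SCI library at 1794 CPM and the highest sham library at 1780 CPM. As a share of a library's reads the loop overlapped between the groups. By CPM 0 of the 14 lay below throughout, where 5.17% of the 484 did.

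The other cullin and F-box hosts with enough reads overlapped between the groups. Fbxw4, an F-box gene known from a mouse limb mutant, had 32, 17 and 17 reads in SCI libraries against 17, 10 and 0 in sham libraries (log2 fold change 0.41, SE 0.75). Its 2 main loops end at the same upstream site, 272832862. The shorter, chr1:272828470-272832862 on the minus strand, had 18, 7 and 8 reads in SCI libraries against 2, 9 and 0 in sham libraries, and the longer, chr1:272769330-272832862, had 9, 7 and 2 in SCI libraries against 14, 1 and 0 in sham libraries. Their log2 fold changes were 0.57 (SE 0.99) and -0.67 (SE 1.12).

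Fbxl5, whose protein senses iron and directs the iron-regulatory protein IRP2 to degradation, had 16, 13 and 18 reads in SCI libraries against 15, 6 and 7 in sham libraries (log2 fold change -0.07, SE 0.55). Its main loop chr14:71889205-71905496 on the plus strand had 9, 9 and 10 reads in SCI libraries against 11, 3 and 7 in sham libraries, and a longer one from the same start, to 71912441, had 7, 2 and 4 in SCI libraries against 4, 3 and 0 in sham libraries. Fbxo27, a receptor for glycoproteins, had its whole signal in the sense overlapping loop chr1:88059771-88069753, with 8, 20 and 11 reads in SCI libraries against 11, 8 and 0 in sham libraries (0.16, SE 0.86). Cul3, the scaffold of the ligases that use BTB adaptors, had 2, 9 and 16 reads in SCI libraries against 3, 1 and 11 in sham libraries (0.12, SE 0.95). All 11 of its reads in sham replicate 3 lay on a loop seen in no other library, chr9:85798534-85853449, while its other 10 circRNAs had few reads each.

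Dcun1d4 was the only neddylation host of any depth. It gave 73, 61 and 66 reads in SCI libraries against 52, 36 and 28 in sham libraries, or 5322 ± 492 CPM in SCI and 5553 ± 1853 CPM in sham. For the host sum the log2 fold change was -0.06 (SE 0.29, adjusted p = 0.986). It had 8 exonic circRNAs, all built from 4 upstream and 3 downstream ends inside 33452 bp of chromosome 14 on the minus strand. Each of the 8 shares at least 1 end with another. So loops of one gene could be compared by the splice site they used.

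The loops of Dcun1d4 differed in how their reads divided between the groups. The most-read, chr14:37060969-37084547, 481 nt, had 31, 30 and 28 reads in SCI libraries against 40, 22 and 13 in sham libraries (log2 fold change -0.68, SE 0.43). The second starts at the same upstream end and runs on to a more distal downstream end, chr14:37051096-37084547, 590 nt. It had 29, 11 and 17 reads in SCI libraries against 2, 5 and 8 in sham libraries (1.02, SE 0.69). The next, chr14:37051096-37076465, 479 nt, uses that distal end too and had 6, 12 and 16 reads in SCI libraries against 1, 3 and 0 in sham libraries. One more loop to the distal end, chr14:37051096-37084305, had 0 reads in each SCI library and 2, 0 and 0 in sham libraries.

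Taken over its loops, the distal end at 37051096 took 47.9%, 37.7% and 50.0% of the Dcun1d4 reads in SCI and 9.62%, 22.2% and 28.6% in sham. The means were 45.2% ± 6.59 in SCI and 20.1% ± 9.65 in sham, without overlap. The middle end at 37060969 took 51.3% ± 6.69 in SCI and 71.7% ± 5.13 in sham, again without overlap. Among all 134 hosts with 100 or more reads and a choice of downstream ends, the share of the most-used end lay above sham in every SCI library in 6.72% and below it in 4.48%. In Dcun1d4 the most-used end is the middle one. The rates are thus no background for the distal end, for which none was counted. Of the 20 reads on the middle end in sham replicate 3, 7 came from a loop seen in that library alone. With circRNAs in 2 or more libraries only, the distal end took 45.2% ± 6.59 in SCI and 22.1% ± 16.0 in sham with overlap, the highest sham library being at 38.1% and the lowest SCI library at 37.7%, and the middle end took 51.3% ± 6.69 in SCI and 69.5% ± 9.38 in sham without overlap.

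Over all circRNAs, the share of the most-read loop overlapped in both leading hosts. In Dcun1d4 that loop took 44.7% ± 3.89 of the reads in SCI and 61.5% ± 15.3 in sham, and in Ttc3 66.4% ± 6.38 in SCI and 59.7% ± 15.4 in sham. Of the 138 hosts with 100 or more reads, at least 2 circRNAs and reads in every library, this share lay above sham in every SCI library in 5.8% and below it in 6.52%. With circRNAs in 2 or more libraries only, the Dcun1d4 loop took 42.5%, 49.2% and 42.4% in SCI and 80.0%, 61.1% and 61.9% in sham, without overlap. Ttc3 still overlapped in that setting, for which no rate over other hosts was counted.

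A test of each loop's share within its host called none. Enough reads were at hand for 7 member circRNAs, from Ttc3, Dcun1d4 and Fbxw4, among 173 in the whole table, and 0 of the 173 passed (edgeR, adjusted p under 0.05), while 2, or 1.16%, had an unadjusted p under 0.05, neither of them a member. The smallest p among the members was that of the long Dcun1d4 loop chr14:37051096-37084547, whose log2 share differed by 0.85 between SCI and sham (adjusted p = 0.987). Next was the sense overlapping Ttc3 loop chr11:38199286-38201886, with a change in log2 share of -0.81 and the same adjusted p of 0.987.

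**Figure D4:**
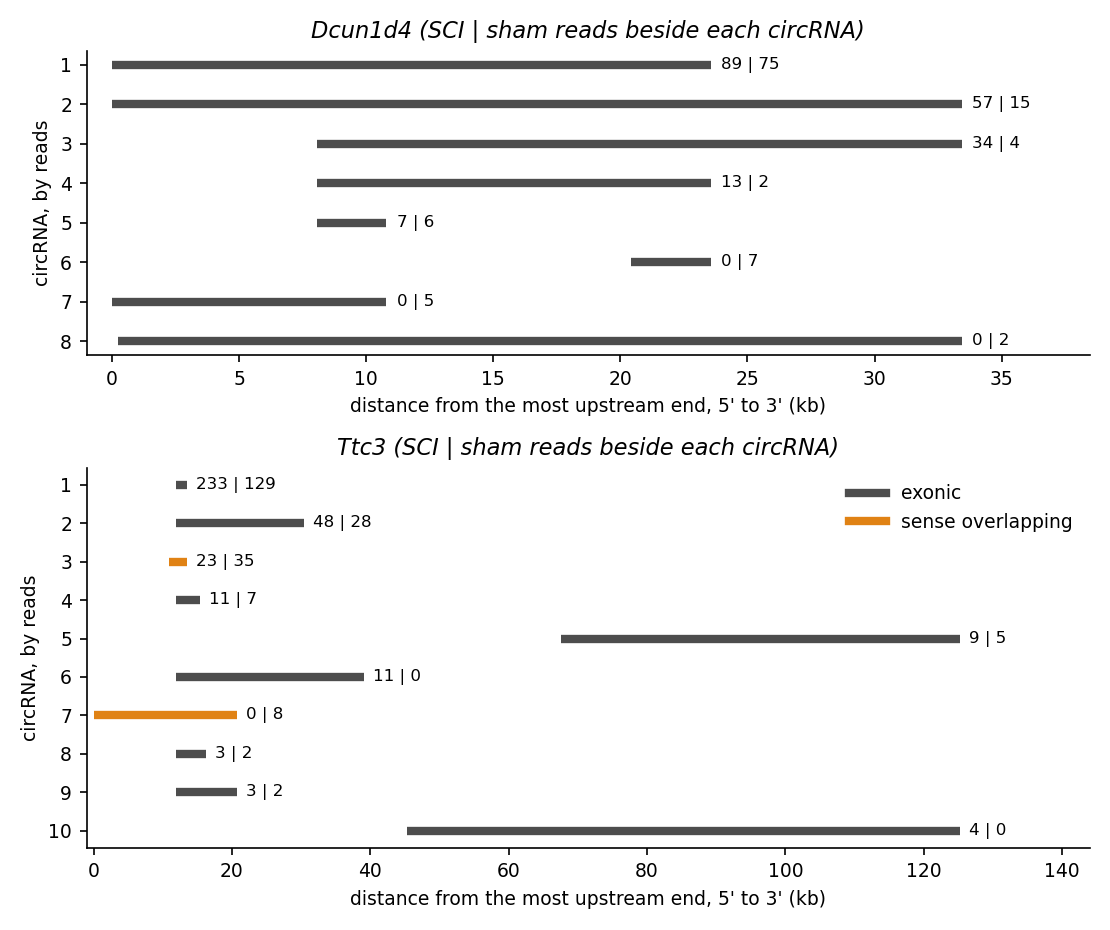
The 8 Dcun1d4 circRNAs and the 10 most-read Ttc3 circRNAs drawn to scale, each a bar from its upstream to its downstream end (x axis, distance in kb from the most upstream end of the host in the direction of transcription), ranked by reads from the top, with SCI and then sham reads beside it. The Dcun1d4 loops share a few ends, and the 3 that reach the distal end at the right have 57, 34 and 0 SCI reads against 15, 4 and 2 sham reads, while 6 of the Ttc3 loops start at the same site.

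**Figure D5:**
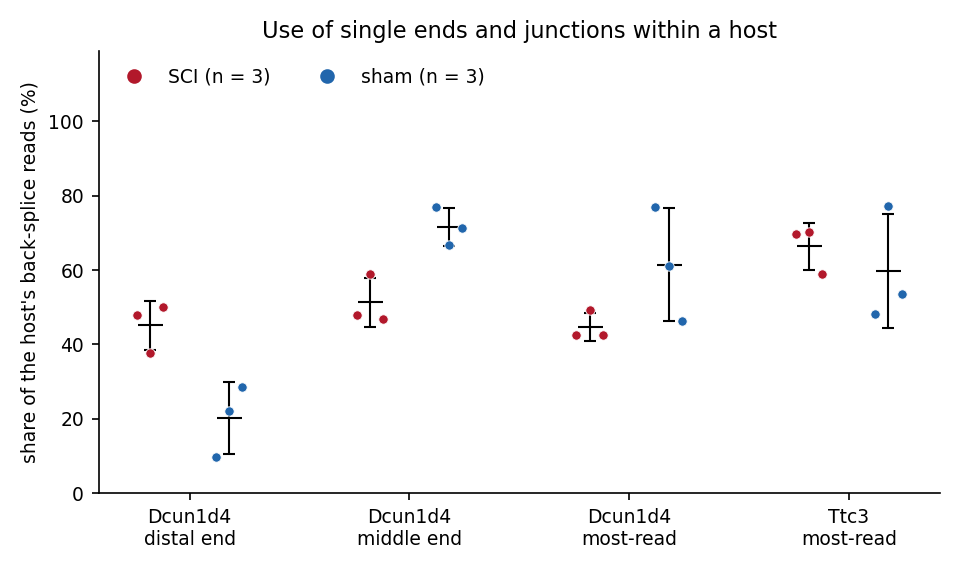
Share of a host's back-splice reads (percent, y axis) that used the distal or the middle downstream end of Dcun1d4, or fell on the most-read loop of Dcun1d4 and of Ttc3 (x axis), with SCI libraries in red left of sham libraries in blue, each point a library and the bars the mean ± SD (n = 3). Over all circRNAs, the distal Dcun1d4 end lies at 37.7% to 50.0% in SCI and 9.62% to 28.6% in sham, and both most-read loops overlap between the groups.

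Hosts with a Usp symbol were many and thinly read. These 26 hosts held 81 circRNAs and 348 reads, and the 3 that were tested overlapped between the groups. Usp32 had 13, 16 and 20 reads in SCI libraries against 11, 17 and 3 in sham libraries (log2 fold change -0.22, SE 0.62), spread over 12 circRNAs. The most-read, chr10:72296244-72323733 on the minus strand, had 2, 3 and 1 reads in SCI libraries against 7, 5 and 0 in sham libraries, and chr10:72275753-72278512 had 4, 2 and 0 in SCI libraries against 3, 6 and 2 in sham libraries. Another, chr10:72296244-72303736, ends at the same downstream site as the first and had 4, 6 and 2 reads in SCI libraries against 0 in every sham library. Usp9x, an X-linked deubiquitinase mutated in intellectual disability, had 8, 2 and 7 reads in SCI libraries against 10, 4 and 0 in sham libraries (-0.56, SE 1.09), and its most-read loop chrX:11361749-11363516 had 1, 2 and 1 in SCI libraries against 3, 0 and 0 in sham libraries. Usp54 had 7, 3 and 5 reads in SCI libraries against 8, 6 and 4 in sham libraries (-1.09, SE 0.84), with chr15:8253333-8262804 at 2, 1 and 3 in SCI libraries against 0, 2 and 0 in sham libraries. Usp34, a regulator of Wnt signalling, was not tested and had 4, 5 and 4 reads in SCI libraries against 10, 2 and 11 in sham libraries.

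Several thinly read deubiquitinases were seen in SCI alone. Usp10 had 0, 4 and 5 reads there, Usp25 had 3, 0 and 4 and Usp24 had 2, 2 and 2, each against 0 in every sham library, which by the floor is at least 1.66-fold, 1.29-fold and 1.11-fold higher in SCI. Usp5 had 3, 0 and 2 reads in SCI and 0 in sham, which at these totals allows no fold above 1. The same holds for the F-box host Fbxo10 with 2, 0 and 3, the RING host Rnf180 with 5, 0 and 0 and Ubap1l with 0, 0 and 5. Rnf216, a RING ligase gene, had 3, 0 and 3 reads in SCI and none in sham, at least 1.11-fold higher in SCI. Of these hosts, Usp10 and Fbxo10 kept their reads over circRNAs in 2 or more libraries, while Usp24, Usp25, Usp5 and Rnf216 had no such circRNA. Counting all members with a share of reads above sham in every SCI library gave 5, or 4.03%, against 5.92% of all 4443 hosts. Fbxl17, Rnf150, Ubr2 and Usp24 were among them. Over circRNAs in 2 or more libraries 6 of the 77 hosts left did so, namely Rnf130, Rnf150, Ube2cbp, Ubr2, Ubr4 and Usp37. The share of all hosts that did so in that setting was not counted, so these 6 cannot be set against a background.

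The E2 class held few reads. Ube2g1, an E2 of the endoplasmic reticulum pathway, had 8, 6 and 1 reads in SCI libraries against 0, 0 and 12 in sham libraries, so its sham reads all came from replicate 3. Ube2k, an E2 that builds lysine-48 chains, had 0 reads in each SCI library and 0, 0 and 11 in sham. The 11 were again all in replicate 3 and on loops seen there alone. By the floor over SCI this is 6.62-fold lower in SCI relative to the totals. Ube2q2 had 1, 2 and 1 reads in SCI libraries against 8, 0 and 0 in sham libraries. The RING host Rnf145 likewise was read in a single sham library. It had 0 reads in each SCI library and 5, 0 and 0 in sham, 3.01-fold lower in SCI by the floor. Each of these rests on 1 library. Ube2cbp had 12, 6 and 4 reads in SCI libraries against 1, 3 and 0 in sham libraries. In the RefSeq gene table its symbol is an older name of Ube3d, an E3 ligase gene and not an E2, and the table of counts lists both symbols with circRNAs on the same transcript. Summed as 1 host they had 15, 16 and 4 reads in SCI libraries against 5, 3 and 1 in sham libraries, and the log2 fold change of the sum was 1.06 (SE 0.88, adjusted p = 0.939).

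The remaining classes were close to the limit of counting. Ube4b, an E4 enzyme that extends ubiquitin chains and is linked to delayed axon degeneration through the mouse slow Wallerian degeneration fusion gene, had 2, 1 and 4 reads in SCI libraries against 0, 2 and 0 in sham libraries. Ubap1l and Ubap1 had 5 and 2 reads, all in SCI replicate 3.

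Genes of the same pathway whose symbols fall outside the rule showed no call either. Lists of 193 genes covering other HECT and RING ligases, cullin-RING adaptors, neddylation enzymes, ubiquitin genes and E1 enzymes, other deubiquitinases, the proteasome and the SUMO pathway had 86 hosts in the table and 18 with enough reads to test. None of the 18 passed (edgeR, lowest adjusted p 0.649, and 0 also under DESeq2 and limma-voom), 2 had an unadjusted p under 0.05, 10 were positive, and their median log2 fold change was 0.07 against 0.14 for all hosts. Of all back-splice reads they held 1.76% ± 0.0835 in SCI and 1.82% ± 0.176 in sham. Arih1, a RING-between-RING ligase that works with neddylated cullins, had 13, 8 and 4 reads in SCI libraries against 12, 6 and 27 in sham libraries (log2 fold change -1.62, SE 0.62). Zswim6 was put on the list of RING ligases, though it is named for a SWIM zinc finger and not for a RING. It had 10, 18 and 22 reads in SCI libraries against 4, 2 and 0 in sham libraries, with no overlap (2.18, SE 0.90, adjusted p = 0.698). Its 1 circRNA in 2 or more libraries had 8, 16 and 19 reads in SCI libraries against 2, 2 and 0 in sham libraries.

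In the other lists the tested hosts with the smallest p all overlapped between the groups. The cullin-3 adaptor Klhl24 had 34, 24 and 23 reads in SCI libraries against 4, 2 and 22 in sham libraries (log2 fold change 0.76, SE 0.61), and the cullin-4 receptor Dcaf6 17, 17 and 8 in SCI libraries against 5, 6 and 7 in sham libraries (0.37, SE 0.62). The HECT ligase host Trip12 had 7, 6 and 15 reads in SCI libraries against 7, 4 and 0 in sham libraries (0.49, SE 1.00). The polyubiquitin gene Ubb had 36, 19 and 21 reads in SCI libraries against 21, 16 and 19 in sham libraries (-0.39, SE 0.39), and the deubiquitinase host Zranb1 had 31, 43 and 36 in SCI libraries against 21, 23 and 14 in sham libraries (0.07, SE 0.37). Of proteasome and p97 genes, Faf1 had 31, 31 and 16 reads in SCI libraries against 16, 5 and 7 in sham libraries (0.64, SE 0.51), and Psmd2 had 13, 2 and 4 in SCI libraries against 8, 2 and 8 in sham libraries (-0.71, SE 0.90). The SUMO ligase host Pias2 had 20, 16 and 7 reads in SCI libraries against 6, 3 and 3 in sham libraries (0.98, SE 0.72). Of 8 other neddylation genes, 1 had any back-splice read, with 3 in SCI and 0 in sham.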

How the data were processed

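Spinal cord RNA of 3 SCI and 3 sham libraries was compared. Per the labels' protocols, RNA was extracted with Trizol and libraries were made with an Illumina TruSeq RNA kit. Bowtie 0.12.2 and mm8, a mouse build, appear in the submitters' processing notes. Any removal of linear RNA, the circRNA caller and the coordinates' build are not given in the sources used. Coordinates and the symbol, strand and class of each circRNA are printed as the deposited table gives them. The authors deposited whole-number counts of back-splice reads per circRNA, per the file headers. They also deposited log2 CPM values made with edgeR, per the file headers, which were not used in any test. The table holds no circRNA whose best library has under 2 reads.

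Counts were summed per host over all its circRNAs except antisense ones. All 124 member symbols matched the RefSeq gene table of assembly GRCr8 (117 as current symbols, 7 as older names), used for names and chromosomes only. Hosts, circRNAs and circRNA shares within hosts (diffSpliceDGE) were tested over the whole table with edgeR 4.0.16 in R 4.3.3, by the quasi-likelihood F test with TMM scaling, a low-count filter (filterByExpr, min.count 5, min.total.count 15), no covariate besides group, and a Benjamini-Hochberg adjusted p threshold of 0.05. SE was taken from the fold change and F. The pathway's other lists are those named in the text. DESeq2 1.42.0 and limma-voom (limma 3.58.1) were alternatives. The host test alone was also tried on counts simulated with a common dispersion, and no result here rests on that trial.

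For a host at 0 reads in a group, the fold is set against 3 reads over that group, with the other group's reads taken as counted. The 95% interval is exact binomial (SciPy 1.17.1). The interval covers counting error only, as PCR copies were not marked by molecular identifiers. The fold against 3 reads covers only that of the group at 0, so it is no lower limit of the ratio. The libraries' sequenced totals are not among the values used here.

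The members, role classes and lists were chosen with earlier results of these data known. Role classes follow the symbol and not the protein's activity, so Ube2cbp counts among the Ube2 hosts and Usp6nl among the Usp hosts. Named are all tested members with their most-read circRNA (and the second with 10 or more reads), the 3 most-read hosts of each role class, hosts with 5 or more reads all in 1 group, and the 2 hosts with the smallest p in each other list. Some hosts that this rule takes are not reported here. Other names were chosen after their values were seen.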

Additional observations from a re-analysis of the deposited data

How the results depend on the processing

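No member host or member circRNA was called under any of the 17 host, 13 circRNA or 9 share alternatives, and the lowest adjusted p of a member was 0.319 for a host and 0.345 for a circRNA. Over the whole table the 2 host calls became 1 with DESeq2 size factors, 7 with no filter, 4 with DESeq2, 1 with antisense circRNAs added, 0 with exonic circRNAs only and 1 with circRNAs in 2 or more libraries only, and leaving out a library gave 0 (without SCI replicate 3 or sham replicate 1) to 8 (without sham replicate 3). The 1 circRNA call became 2 with library totals only, 0 with no filter, 2 at a minimum count of 10, 2 with DESeq2 and 2 with limma-voom, and 0 (without sham replicate 1) to 3 (without sham replicate 3) when a library was left out. The other pathway genes had 0 to 1 calls when a library was left out, the 1 being Klhl2 without sham replicate 3.

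The replicate block gave 1 host call and 2 circRNA calls over the whole table, 0 among members and 0 in the share test. It left the share differences as they were, at -0.41 points for all members and -0.30 for RING hosts. Libraries of the same number correlated at 0.004, 0.064 and 0.027 in their deviations from the group means, and SCI replicate 1 correlated best with sham replicate 3 (0.067). With so few libraries per group and such low counts, these values cannot settle whether the numbers mark pairs.

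The RING difference in share was -0.16 points with circRNAs in 2 or more libraries only, and -0.36 to -0.23 when a library was left out. For all members it was -0.66 (without sham replicate 3) to -0.18 (without sham replicate 1).

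Rnf150, Mycbp2, Fbxl17, Trim37, Usp54, Rnf220, Rnf219 and Herc1 kept their sign under every alternative that could test them. The log2 fold changes of the following hosts crossed 0. With no filter, which moved the median of all hosts by 0.34, they were 0.27 for Dcun1d4, 0.26 for Fbxl5, 0.18 for Ttc3, 0.28 for Ube3a, 0.079 for Ubr1 and 0.083 for Usp32. With limma-voom they were -0.12 for Cul3, 0.0064 for Dcun1d4, 0.67 for Ubr1, 0.16 for Usp32 and 0.18 for Usp9x. Cul3 was at -0.0080 with library totals only, Dcun1d4 at 0.0054 with circRNAs in 2 or more libraries only, Ttc3 at 0.030 and Ube3a at 0.85 with exonic circRNAs only, and Ubr1 at 0.28 under the block. Leaving out a library gave ranges of -0.58 to 1.32 for Cul3, -0.25 to 0.27 for Dcun1d4, -0.25 to 0.52 for Fbxl5, -0.40 to 0.82 for Fbxo27, -0.15 to 1.26 for Fbxw4, -0.24 to 0.032 for Ttc3, -0.27 to 0.46 for Ube3a, -0.78 to 1.24 for Ubr1, -0.65 to 0.63 for Usp32 and -1.11 to 0.61 for Usp9x.

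For circRNAs, no filter (median shift 0.58) gave 0.010 for the main loop of Ube3a, 0.12 for Trim37, 0.52 and 0.40 for the first and second of Ttc3, 0.15 for Fbxl5 and 0.0037 for Rnf219. Fbxo27 was at -0.00069 at a minimum count of 10, and the longer Fbxw4 loop at 0.60 with limma-voom and 0.20 under the block. Leaving out a library gave -0.40 to 0.83 for Fbxo27, -1.14 to 2.57 for the longer Fbxw4 loop, -0.15 to 0.17 and -0.26 to 0.29 for the Ttc3 loops, and -0.65 to 0.19 for Fbxl5. The cause of these changes was not tested. Low read counts kept 105 of the 124 member hosts from being tested.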

Other observations

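Antisense circRNAs were outside the host sums. By the rule's symbols 2 were listed, assigned to March3, a member host, and to Fbxl22, which has no sense circRNA in the table. Each had 0 reads in every SCI library and 7 reads in sham, all of them in sham replicate 3.

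The circRNAs of 5 or more reads that a single library held were counted per library for the members. There were 1, 0 and 2 of them in SCI and 4, 0 and 13 in sham. In SCI they came from Rnf180, Ubap1l and Cul3. In sham replicate 1 they included Rnf217, Rnf145 and Usp54. In sham replicate 3 they came from Herc2, Trim37, Ttc3, Dcun1d4, Ube2k, Trim36, Fbxo15, March7, Fbxl13, Rnf111 and Cul3, with Trim37 and Ube2k giving 2 each. Of the 20 member hosts with 30 or more reads, none was at 0 in an SCI library, 1 was at 0 in sham replicate 1 (Rnf150) and 5 were at 0 in sham replicate 3 (Fbxo27, Fbxw4, Rnf150, Ubr1 and Usp9x).

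The hosts with the most circRNAs after Ttc3 were Mycbp2, Trim37 and Usp32 with 12 each and Cul3 with 11. The ends were reused to differing degrees. All 8 Dcun1d4 circRNAs and 14 of 16 in Ttc3 shared an end with another of the same host, 10 of 12 did in Trim37 and in Usp32, and 6 of 12 in Mycbp2. In Fbxo15 all 4 circRNAs, and in Cul3 4 of 11, had the same downstream end.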
